A study of Mus musculus with 2 samples.

Results

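The urea cycle and periportal nitrogen genes are 10 genes of the liver's route from amino acid nitrogen to urea: Nags, Cps1, Slc25a15, Otc, Ass1, Asl, Arg1, Gls2, Hal and Sds. They were taken as the non-control probes whose RefSeq transcript accession belongs to one of these genes, and all 10 were found, among 20284 genes on the array, with 12 probes and 21 spots. The array measured RNA from the livers of male C57BL/6 mice with liver fibrosis. One group had received recombinant TSG-6 protein, which is secreted in inflammation and binds hyaluronan, by vein, and its control had received PBS, the vehicle, so both groups were fibrotic. How the fibrosis was induced, the dose of TSG-6 and the age of the mice are not given in the sources used here, and livers without fibrosis were not analysed here. Liver RNA was taken 2 weeks later. Equal amounts from the 3 mice of a group made up 1 pool, and each pool went onto 1 one-colour Agilent array.

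The study therefore holds 2 arrays, without replicates. No test, SE or p-value is possible, every difference is one between these 2 pools, and array and group cannot be told apart. In whole liver RNA, fewer cells of a type and less RNA per cell cannot be told apart either. Each array carried 59305 non-control spots, of which 75.5% were well above background for TSG-6 and 74.0% for PBS, with none saturated. Values below are signals divided by the array's own 75th percentile (a signal of 2476 on the TSG-6 array and 3158 on the PBS array), called scaled signals, and differences are log2 of the TSG-6 over the PBS scaled signal. A difference of 1 is 2-fold. All 10 genes were well above background on both arrays.

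Hepatocytes detoxify ammonia by condensing it with bicarbonate to carbamoyl phosphate in the mitochondrion and passing its nitrogen through citrulline, argininosuccinate and arginine to urea. The pathway is concentrated in periportal hepatocytes, those that meet portal blood first, whereas ammonia that escapes is captured as glutamine by pericentral hepatocytes around the central vein. Glutaminase, histidase and serine dehydratase release ammonia from amino acids in the same periportal cells. Glucagon and glucocorticoids are known to induce urea cycle genes in liver.

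Of the 10 genes, 9 had a higher scaled signal in the TSG-6 pool than in the PBS pool, and Slc25a15 had a lower one. Asl stood at the 2-fold mark. Hal, Sds and Otc were also at least 1.5-fold higher, the other 6 were within 1.5-fold, and the median difference was 0.53. Over all 16427 genes measured on both arrays the median difference was 0.08, and 57.8% were above 0. At least 2-fold apart were 7.06% of them (2.97% higher and 4.08% lower in TSG-6), and at least 1.5-fold higher were 10.6%. Bright probes as a class were higher in the TSG-6 pool, so a direction alone says little of these genes. Of the 10 genes, 8 lay in the brightest decile of measured genes, where 89.3% of 1642 genes were above 0 and the median difference was 0.28. In that decile 18 genes reached 2-fold higher, and 155 genes, 9.44%, reached 1.5-fold higher.

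**Figure D1:**
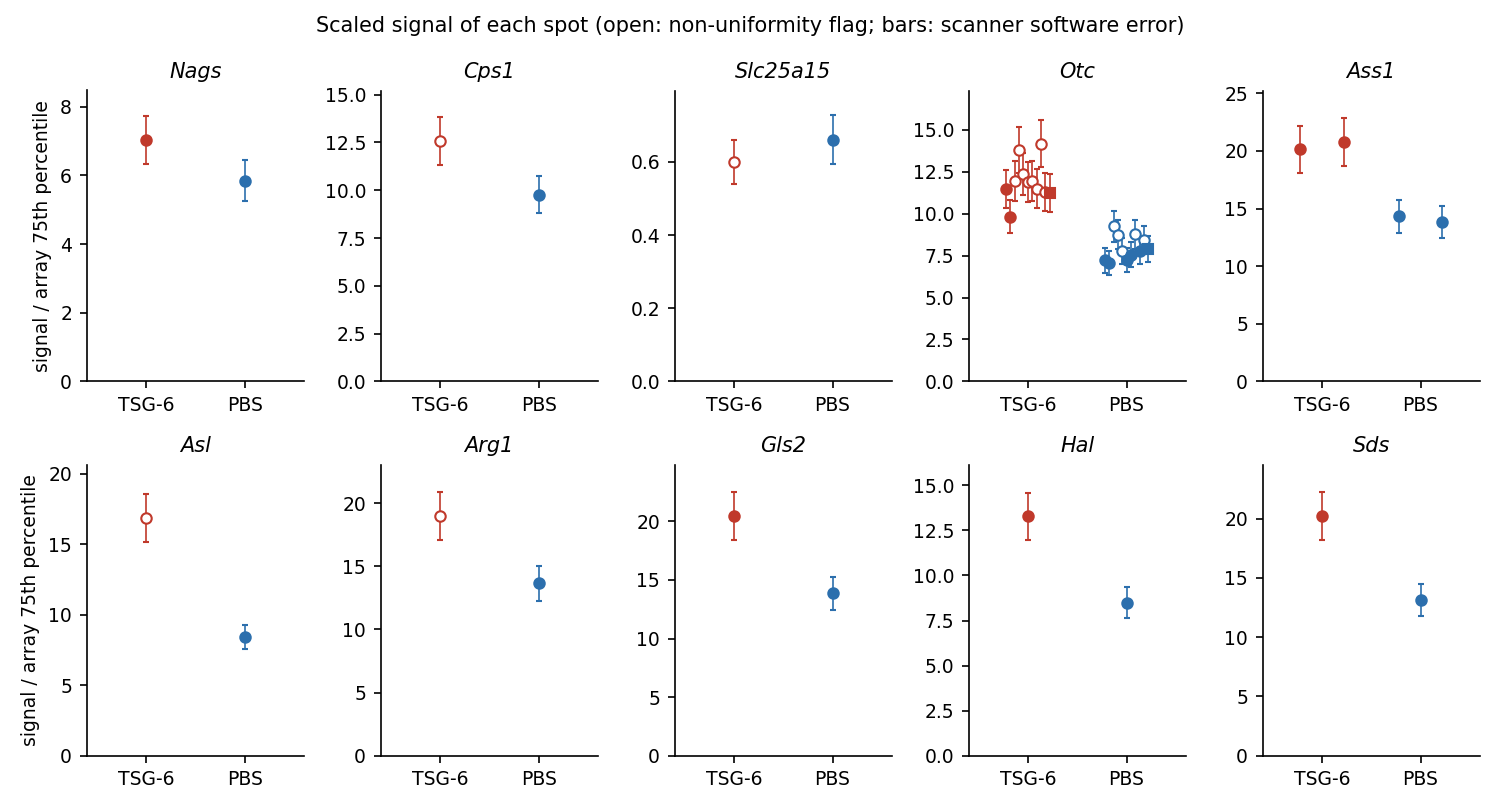
Scaled signal of every spot (y axis, signal over the array's 75th percentile, from 0) in the TSG-6 and PBS pools for the 10 genes. Open symbols carry a non-uniformity flag, bars are the scanner software's error, and in Otc the squares are the spot of its other probe; all Otc spots of the TSG-6 pool sit at 9.81 or above and all those of the PBS pool at 9.24 or below, a gap that is absent from the unscaled signals.

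The first committed steps lie in the mitochondrial matrix. Nags makes N-acetylglutamate, the obligate activator of carbamoyl phosphate synthetase, and its scaled signal was 7.02 in the TSG-6 pool and 5.85 in the PBS pool, a log2 difference of 0.26. Before scaling, its signal was 17392 on the TSG-6 array and 18488 on the PBS array, so the sign of this difference rested on the scaling. Cps1, the carbamoyl phosphate synthetase itself, had 12.6 in the TSG-6 pool and 9.77 in the PBS pool, a difference of 0.36. Its single TSG-6 spot carried a non-uniformity flag. Among the differences of the genes in its own signal decile, Cps1 stood at percentile 65.4 and Nags at 73.6.

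Slc25a15, also called ORNT1, carries ornithine into the matrix in exchange for citrulline. Its scaled signal was 0.60 in the TSG-6 pool and 0.66 in the PBS pool, a difference of -0.14, and its TSG-6 spot was flagged. It was the only one of the 10 below 0, and it lay near the middle of its own signal decile, at percentile 42.2.

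Otc, ornithine transcarbamylase, joins ornithine and carbamoyl phosphate to citrulline and had the most spots of the 10 genes, since 1 of its probes was printed in 10 spots. Those spots ran from 9.81 through a median of 11.9 to 14.2 in the TSG-6 pool, and from 7.05 through 7.77 to 9.24 in the PBS pool. These ranges did not overlap, but before scaling they did, at signals of 24298 to 35101 on the TSG-6 array and 22256 to 29184 on the PBS array, so the gap rested on the scaling. The mean log2 difference was 0.59 ± 0.16 (SD over 10 spots of 1 pair of arrays), or 1.51-fold, and single spots gave 0.37 to 0.87. Flags fell on 8 of these spots in TSG-6 and 5 in PBS, and the 2 spots with no flag on either array gave 0.48 and 0.67. The other Otc probe had 11.3 in the TSG-6 pool and 7.89 in the PBS pool, a difference of 0.51. Spots of one array show how precisely the pool was read, not how mice vary.

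The cytosolic steps followed with 3 enzymes, all higher in the TSG-6 pool. Ass1, argininosuccinate synthetase, brings in the nitrogen of aspartate and had 2 probes. The brighter one had 20.1 in the TSG-6 pool and 14.3 in the PBS pool, a difference of 0.49, and the other had 20.8 in TSG-6 and 13.8 in PBS, a difference of 0.59. Both probes of Ass1 thus put the TSG-6 pool higher by about the same amount, and none of their spots was flagged.

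Asl, argininosuccinate lyase, splits argininosuccinate to arginine and fumarate and gave the largest difference of the 10. Its scaled signal was 16.9 in the TSG-6 pool and 8.42 in the PBS pool, a difference of 1.003 or 2.004-fold. In its signal decile it stood at percentile 98.96. The value rests on 1 spot per array, and the TSG-6 spot was flagged as non-uniform. The difference was 1.004 with normexp background correction, which starts from the median pixel of the spot, and 0.998 in the authors' deposited table. It ran from 0.63 to 1.29 over 11 alternatives, and the 2-fold call turned on the setting.

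Arg1, liver arginase, releases urea and returns ornithine to the cycle. It had 19.0 in the TSG-6 pool and 13.6 in the PBS pool, a difference of 0.48, with a flagged spot in TSG-6. Arg1 is also a gene of alternatively activated macrophages. The 6 markers of that cell state, all well above background on both arrays, had a summed scaled signal of 9.39 in the TSG-6 pool and 13.04 in the PBS pool, with 2 higher and 4 lower in TSG-6. Most of the difference in that sum came from Chil3, a chitinase-like protein, at 4.78 in the TSG-6 pool and 7.94 in the PBS pool. The part of these cells in the Arg1 value was not tested.

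Of the genes that feed ammonia into the cycle, 3 of 3 were higher in the TSG-6 pool, each read from 1 unflagged spot per array. Gls2, the liver-type glutaminase, had 20.4 in the TSG-6 pool and 13.9 in the PBS pool, a difference of 0.56. Hal, histidase, which deaminates histidine, had 13.3 in TSG-6 and 8.50 in PBS, a difference of 0.64. Sds, serine dehydratase, which turns serine into pyruvate and ammonia, had 20.2 in TSG-6 and 13.1 in PBS, a difference of 0.62. Hal stood at percentile 94.5, Sds at 92.8 and Gls2 at 88.6 of the brightest decile, so these 3 were among its higher genes without being extreme.

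**Figure D2:**
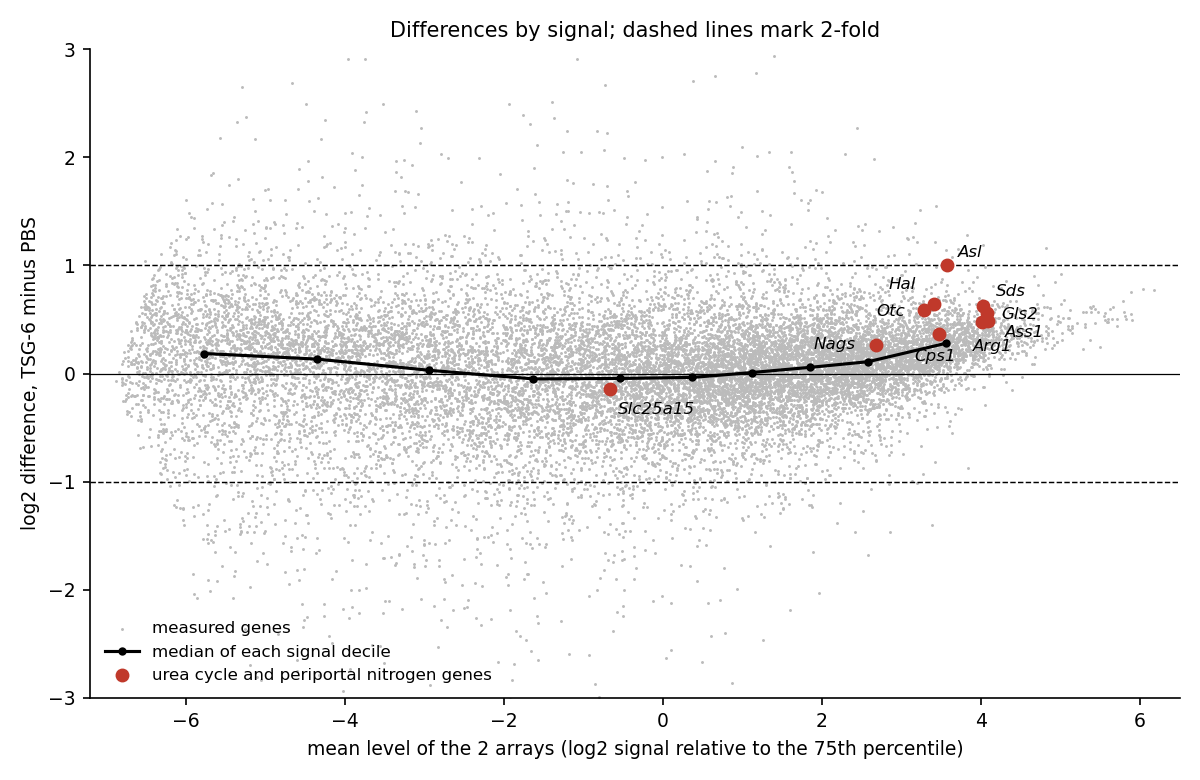
Log2 difference (y axis, TSG-6 minus PBS) against the mean level of the 2 arrays (x axis, log2 signal relative to the 75th percentile) for the measured genes in grey, with the median of each signal decile as a black line and the 10 genes in red; 70 genes beyond a difference of 3 are not drawn. The black line climbs to 0.28 in the brightest decile, where Asl at 1.003 stands highest of the red points and Cps1 at 0.36 lies nearest to the line.

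The scanner software gave an error of 10% for each signal of the 10 genes, which makes an error of 0.20 for a log2 difference of 2 single spots. Over 336 probes printed in 5 or more spots the pooled SD of the difference was 0.15. Measured from 0, the differences of all the genes except Slc25a15 exceeded 0.20, but so did the median of the brightest decile, 0.28. Measured from the median of their own signal decile, Asl, Hal, Sds, Otc, Gls2 and Ass1 exceeded 0.20. Arg1 (0.198), Nags (0.15), Cps1 (0.08) and Slc25a15 (-0.09) did not. Otc is a mean of 10 spots, to which the error of single spots does not apply. The error of 0.20 and the SD of 0.15 both leave out the spread between mice. Flags were frequent among these spots: 12 of 21 on the TSG-6 array and 5 of 21 on the PBS array. Of 1897 spots read for the brightest decile, 14.4% were flagged on the TSG-6 array and 6.22% on the PBS array. Otc alone supplied 8 of the 12 and all 5. Without flagged spots Arg1, Asl, Cps1 and Slc25a15 had no value, and the median over the other 6 was 0.54.

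Because the scale of 2 arrays is a choice, the 10 genes were also set against 8 hepatocyte markers measured on the same arrays, a comparison that a common scale factor cannot move. The markers, which included albumin (Alb), Apoa1, Ttr and Fgb, had differences from 0.17 to 0.43 with a median of 0.36 and a summed scaled signal of 188 in the TSG-6 pool and 150 in the PBS pool. Asl, Hal, Sds, Otc, Gls2, Ass1 and Arg1 lay above every marker, Cps1 and Nags among them, and Slc25a15 below all of them. The upper quartile of the differences in the brightest decile was also 0.43, so many other bright genes lay above every marker too. Of the alternatives that can move genes against each other, normexp and cyclic loess left the same 7 genes above every marker. The count was 9 of 10 with quantile normalization and 5 of the 6 genes left without flagged spots. With quantile normalization Slc25a15, at -0.16, was no longer below every marker, as the lowest marker was at -0.20. The median of the 10 genes exceeded that of the markers by 0.17, a difference with no error of its own here.

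RefSeq promoter windows of GRCm38.p6 were at hand for 5 of the 10 genes: Otc, Ass1, Hal, Nags and Slc25a15. The 250 bases before the transcript start are shown for the mitochondrial enzyme Otc, the cytosolic enzyme Ass1 and the ammonia-releasing enzyme Hal, which were 1.41-fold to 1.56-fold higher in the TSG-6 pool, and for Nags, which differed least among the higher genes. They are written 5′ to 3′ on the gene's strand. Capitals mark 4 short motifs on either strand, picked with these letters in view: TATAA (TATA core), TTGCNNAA (a C/EBP-like word, C/EBP being a family of liver transcription factors), AAAGTNCA (an HNF4-like word, HNF4 being a hepatocyte nuclear receptor) and GGGCGG (the GC box).
Otc (chrX:10252055-10252304, plus strand): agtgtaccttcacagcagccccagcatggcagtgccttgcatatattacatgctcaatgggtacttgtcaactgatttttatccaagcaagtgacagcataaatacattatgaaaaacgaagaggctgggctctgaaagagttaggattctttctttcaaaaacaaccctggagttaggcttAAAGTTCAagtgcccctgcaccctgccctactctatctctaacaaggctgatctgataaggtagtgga
Ass1 (chr2:31470020-31470269, plus strand): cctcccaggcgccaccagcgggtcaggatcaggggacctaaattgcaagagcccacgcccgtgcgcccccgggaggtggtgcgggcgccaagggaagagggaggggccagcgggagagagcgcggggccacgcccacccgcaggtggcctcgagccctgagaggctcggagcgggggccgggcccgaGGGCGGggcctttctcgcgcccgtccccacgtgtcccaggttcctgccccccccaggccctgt
Hal (chr10:93488518-93488767, plus strand): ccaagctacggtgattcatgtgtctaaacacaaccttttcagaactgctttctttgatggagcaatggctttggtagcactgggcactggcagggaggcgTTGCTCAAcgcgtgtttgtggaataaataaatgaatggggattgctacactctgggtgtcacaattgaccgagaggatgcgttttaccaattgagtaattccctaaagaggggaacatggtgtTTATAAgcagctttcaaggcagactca
Nags (chr11:102145263-102145512, plus strand): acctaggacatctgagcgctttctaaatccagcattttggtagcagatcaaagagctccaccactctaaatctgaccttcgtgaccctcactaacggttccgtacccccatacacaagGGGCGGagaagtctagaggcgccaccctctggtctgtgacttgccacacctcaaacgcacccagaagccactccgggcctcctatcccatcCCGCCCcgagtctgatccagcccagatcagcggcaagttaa

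The windows differed in base composition. Ass1 had 75.6% G and C with 23 CpG, Nags 55.6% with 11, Hal 45.6% with 6 and Otc 43.6% with 1, against a median of 52.4% and 6 CpG over 32841 windows of the same length. Otc held 1 HNF4-like word, 68 to 61 bases before its start, a word found in 3.53% of all windows. Hal held 1 C/EBP-like word, 150 to 143 bases before its start (9.57% of windows), and a TATA core read on both strands from 27 to 22 bases before it (22.8% of windows), where the matches of the 2 strands overlap by 4 bases. Ass1 held 1 GC box and Nags 2 (32.7% of windows). The 2 windows of Slc25a15, not shown, had 57.6% and 80.4% G and C with 2 and 5 GC boxes, and the first held a TATA core. Otc, Ass1 and Hal, the 3 genes with similar differences, shared none of these words in the window. A match is a description of letters, not of a bound site.

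The neighbouring steps of nitrogen metabolism were read from 38 further genes, chosen as pathway enzymes, transporters and regulators and all measured on both arrays. Of these, 31 were above 0, with a median of 0.36. Past 2-fold there were 2 higher and 2 lower genes in the TSG-6 pool (10.5% of the list against 7.06% of all genes). At least 1.5-fold higher were 11 (28.9% of the list against 10.6% of all genes), a count that depended on the scaling. The highest were Prodh (proline dehydrogenase), at 12.996 in the TSG-6 pool and 5.46 in the PBS pool or 2.38-fold, and Oat (ornithine aminotransferase, which trades ornithine for glutamate), at 7.61 in TSG-6 and 3.69 in PBS or 2.06-fold. Gpt, the alanine aminotransferase, came next with a difference of 0.76. The lowest was Asns, asparagine synthetase, at 0.84 in TSG-6 and 2.53 in PBS.

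The following steps were picked out of that list after their values were seen. In the breakdown of histidine, the enzymes after Hal differed by 0.48 (Uroc1), 0.60 (Amdhd1) and 0.20 (Ftcd), so the last step stood lowest. Proline and ornithine catabolism continued through Aldh4a1, with a difference of 0.74. Car5a, the mitochondrial carbonic anhydrase that supplies bicarbonate to Cps1, differed by 0.65, with its spot flagged on both arrays. Slc38a3, a glutamine carrier of the hepatocyte membrane, differed by 0.60. The supply of aspartate to Ass1 differed less: the mitochondrial carrier Slc25a13 (citrin) by 0.36, Got2 by 0.36, Got1 by 0.20 and Glud1, glutamate dehydrogenase, by 0.31 with its brighter probe and -0.10 with the other.

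Relatives of Arg1, Sds and Slc25a15 were also compared after their values were seen, and they showed no common pattern. Arg2, the mitochondrial arginase, differed by -0.30 at a dim signal, and by 0.08 with normexp background correction, while Arg1 differed by 0.48. Sdsl, a relative of Sds, differed by -0.07. Slc25a2, the relative of Slc25a15, differed by 0.70 but at a signal of 97.4 on the TSG-6 array and 76.4 on the PBS array, near the dim end of measured probes.

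The list also held transcription factors and receptors known to control urea cycle genes. Cebpa differed by -0.06, Cebpb by 0.01, Hnf4a by 0.17 and the glucagon receptor Gcgr by 0.25. The glucocorticoid receptor Nr3c1 differed by 0.16 with its brighter probe and 0.06 with the other. The coactivator Ppargc1a differed by 0.38 with its brighter probe and 0.53 with the other. The mitochondrial deacylase Sirt5, which acts on the Cps1 protein, differed by 0.20. Each of these 7 lay within 1.5-fold.

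**Figure D3:**
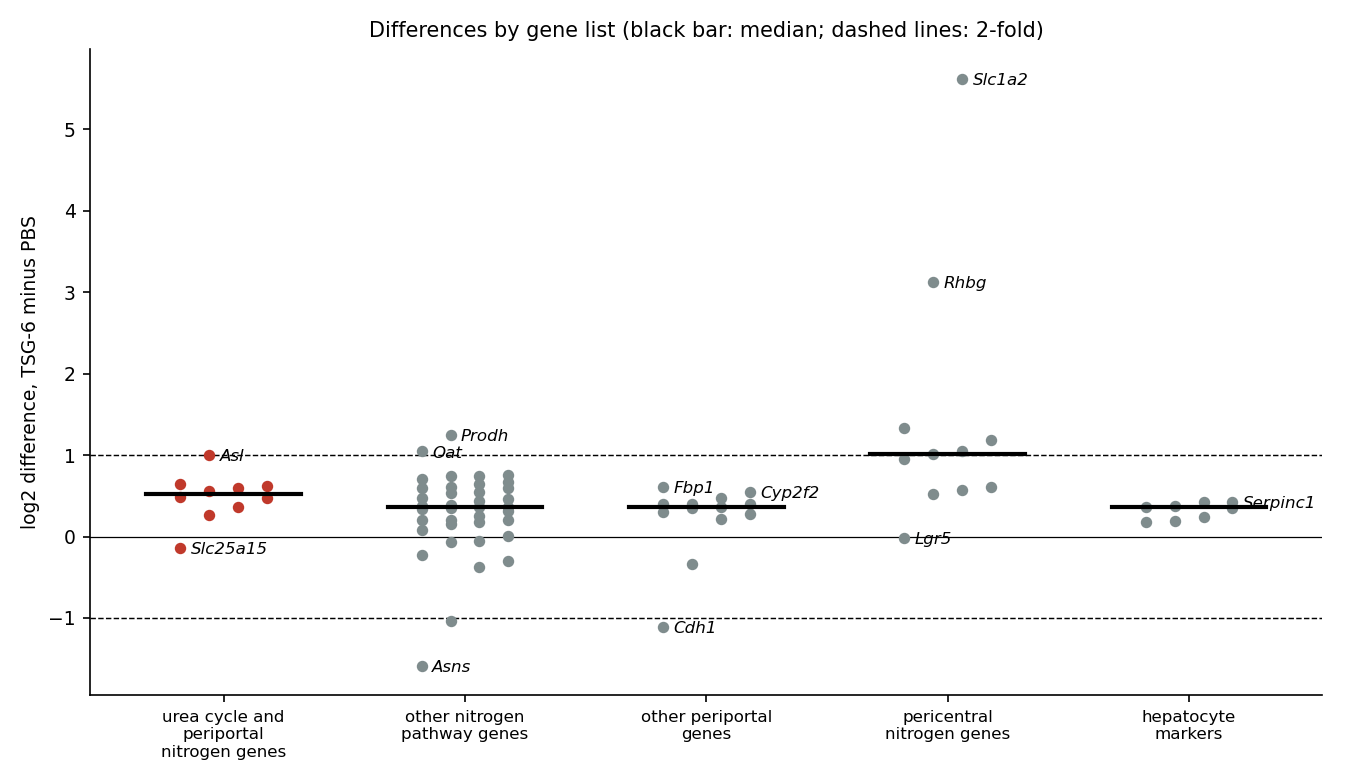
Log2 differences (y axis, TSG-6 minus PBS) of the measured genes in 5 lists, with black bars at the medians and dashed lines at 2-fold; points are spread sideways for legibility. The 10 urea cycle and periportal nitrogen genes have a median of 0.53, the other nitrogen pathway genes 0.36, the other periportal genes 0.37, the pericentral nitrogen genes 1.02 and the hepatocyte markers 0.36. The pericentral list also holds zonation genes, and the gene at its median is the cytochrome Cyp1a2.

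The median of other genes of the periportal zone lay near that of the hepatocyte markers, with a wider spread. Of 13, none was at least 2-fold higher and 1 was at least 2-fold lower, 7.69% of the list against 7.06% of all genes. Of these 13, 11 were above 0 and the median was 0.37. The highest were Fbp1, a gluconeogenic enzyme, with a difference of 0.61, and the cytochrome Cyp2f2 with 0.55, followed by Etnppl with 0.47. The lowest was Cdh1, E-cadherin, at 1.94 in the TSG-6 pool and 4.18 in the PBS pool, 2.16-fold lower in TSG-6, and all 10 of its spots were flagged on both arrays. Hsd17b6 differed by -0.34 and Ctsc by 0.22, and their single spots were also flagged on both arrays. With flagged spots left out 7 genes of this list had a value, all 7 above 0, with a median of 0.40. E-cadherin is made by bile duct cells as well as periportal hepatocytes. The 5 bile duct markers had a summed scaled signal of 10.8 in the TSG-6 pool and 18.1 in the PBS pool, with 1 higher and 4 lower in TSG-6, and their part in the Cdh1 value was not tested.

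The opposite zone showed larger values. Of 11 genes of pericentral nitrogen handling and zonation, 6 were at least 2-fold higher in the TSG-6 pool, none was 2-fold lower, and the median was 1.02. At least 2-fold apart were thus 54.5% of the list, against 7.06% of all genes. The list was written with earlier results of these data known. The count of 6 was 3 with quantile normalization and cyclic loess and 2 with spike-in scaling. Glul, glutamine synthetase, which binds the ammonia that passes the urea cycle, had 8.95 in the TSG-6 pool and 3.57 in the PBS pool, a difference of 1.33. The ammonium transporter Rhbg differed by 3.13 and the glutamate transporter Slc1a2 by 5.62 with its brighter probe and 1.17 with the other. Cyp2e1 and Cyp1a2 differed by 1.19 and 1.02. Lgr5, a pericentral receptor that acts in Wnt signalling, differed by -0.02, while Axin2 and Tbx3, also on this list, differed by 0.95 and 0.61. Oat is on this list and on the nitrogen pathway list. Against 0.53 for the 10 periportal genes the pericentral median was the larger, but with 1 pool per group the difference between the lists could not be tested.

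Markers of other cell types were read as well. Activated stellate cell markers were lower in TSG-6 in 8 of 8 cases, with a summed scaled signal of 30.6 in the TSG-6 pool and 46.0 in the PBS pool, and recruited macrophage markers in 5 of 5, with 12.9 in TSG-6 and 21.5 in PBS. Neutrophil markers were higher in 9 of 9, with 56.3 in TSG-6 and 26.4 in PBS. Of 5 endothelial markers 5 were higher, with 22.98 in TSG-6 and 17.99 in PBS, as were 5 of 5 Kupffer cell markers, with 55.3 in TSG-6 and 47.2 in PBS. No endothelial marker was at least 1.5-fold higher, and 1 Kupffer cell marker was, Timd4 at 2.39-fold. Above 0 were 57.8% of all measured genes and 89.3% of the brightest decile, so the direction of bright markers says little. Of 5 mast cell and basophil markers 4 were higher and 3 of them at least 2-fold, but their summed signal was 1.56 in TSG-6 and 1.61 in PBS. With spike-in scaling 3 of 5 endothelial, 1 of 5 Kupffer cell and 8 of 9 neutrophil markers were above 0, and the Kupffer cell count was 2 with quantile normalization and 3 with cyclic loess. No marker of these lists was below background on either array. The part that a changed mix of cells had in the values of the urea cycle genes was not tested.

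**Figure D4:**
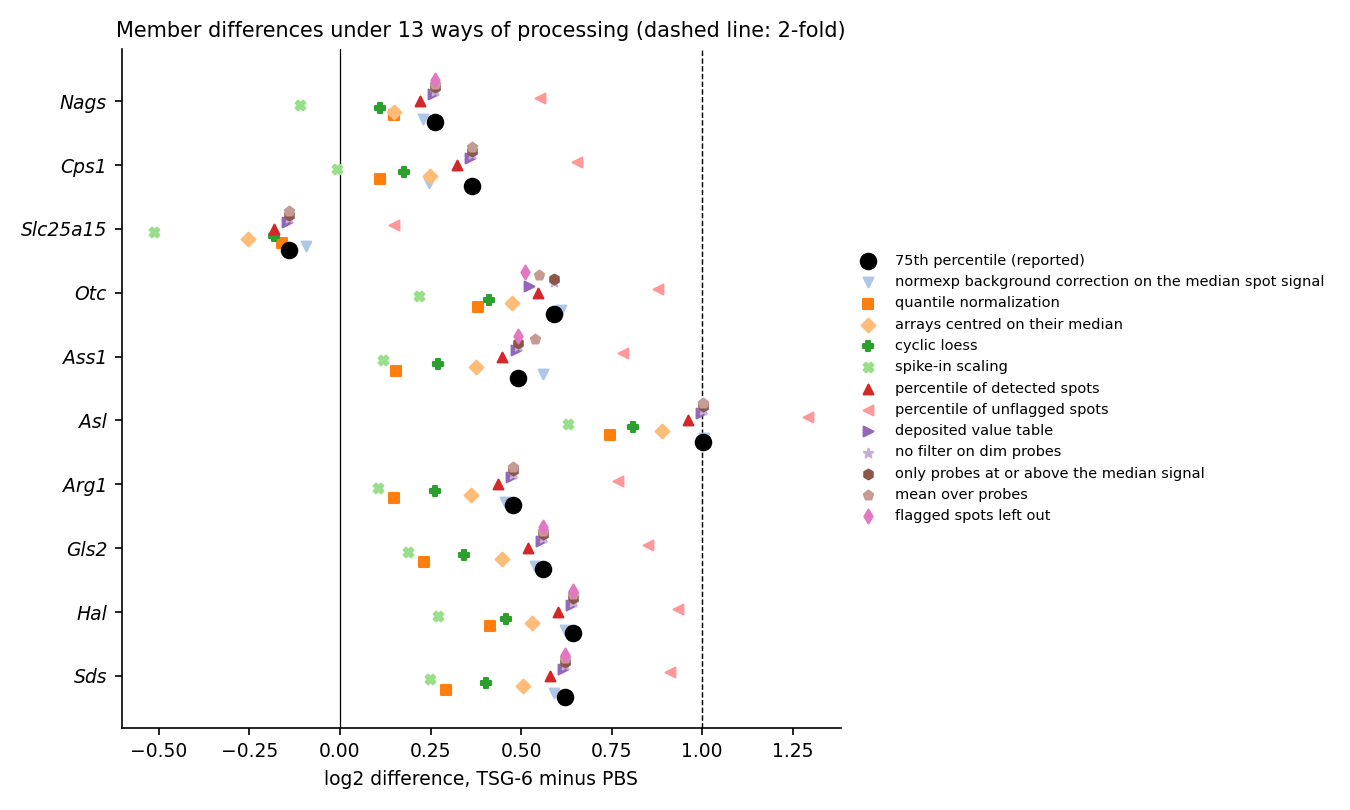
Log2 difference (x axis, TSG-6 minus PBS) of each of the 10 genes under 13 ways of processing, with the reported setting in black and the dashed line at 2-fold; Arg1, Asl, Cps1 and Slc25a15 have no value with flagged spots left out. Asl stays at 0.63 or above in every setting that gave it a value, Slc25a15 is above 0 only with the percentile of unflagged spots (0.15), and for all 10 genes the lowest value is that with spike-in scaling.

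The size of every difference depended on the scale. With the arrays scaled to the spike-in controls, whose median signal differed by 0.02 between them, the median of all genes was -0.29 and that of the 10 genes 0.15 (a change of scale moves all genes alike, so it cannot alter the distance of 0.44 between these medians). On that scale Asl was at 0.63, Hal at 0.27 and Otc at 0.22, Cps1 was at -0.01, Nags at -0.11 and Slc25a15 at -0.51, so 7 of 10 were above 0.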

How the data were processed

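Total liver RNA from 2 pools of 3 mice was labelled with Cy3 from 0.2 ug and hybridised to 1 array per pool, per the labels' protocols. The deposited scanner files give linear spot intensity after the software's own background subtraction and spatial detrending, per the file headers. They give the scanner software as Agilent Feature Extraction 11.5.1.1 and a design on mm9, while the submitters' processing notes name 10.7. The deposited value table holds log2 values, equal to the log2 processed signal minus 1 constant per array within 0.001 for 99.3% of probes on the TSG-6 array and 99.4% on the PBS array. Its column medians are -3.77 for TSG-6 and -3.90 for PBS, its 75th percentiles lie near 0, and it shows no centring across arrays. How it combines replicate spots is not known.

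Accessions were matched to symbols through a RefSeq table of GRCm38.p6, used for names. A gene was found for 26762 of 55681 non-control probes, and a probe for 126 of 129 listed genes. Signals were divided by the 75th percentile of all non-control spots and set on the log2 scale. Spots with a non-uniformity or population flag were kept and marked. Spots of a probe were averaged, a probe was measured if 50% or more of its spots passed the well-above-background call on both arrays, and a gene was read from its brightest measured probe. Genes were counted at 2-fold and 1.5-fold. The 10 genes are all named, with every gene of the other lists at least 2-fold apart and the 3 highest and lowest, except that some are left out where they repeat a list's range and 1 gene counted in a list is not reported here. The genes and lists were chosen with earlier results of these data known. The 75th percentile scaling and the step from spots to genes were tested on simulated data without a trend by signal. The other ways of processing were not tested in this way. Python 3.11.15, pandas 2.3.3, numpy 2.4.6, R 4.3.3 and limma 3.58.1 (normexp with an offset of 50, cyclic loess) were used. The planned normexp on the mean spot signal used the median spot signal instead, as the files used here hold no mean.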

Additional observations from a re-analysis of the deposited data

How the results depend on the processing

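Each value was recomputed under 12 alternatives. The count of genes at least 1.5-fold higher, 4 of 10, was 1 with quantile normalization, median centring, cyclic loess and spike-in scaling. It was 2 with the percentile of detected spots and 8 with the percentile of unflagged spots. With flagged spots left out it was 2 of the 6 genes that had a value. The 1 gene at least 2-fold apart, Asl, gave 0 with quantile normalization, median centring, cyclic loess, spike-in scaling, the percentile of detected spots and the deposited value table. The count was also 0 with flagged spots left out, where Asl had no value. The median of the 10 genes, 0.53, was 0.19 with quantile normalization, 0.31 with cyclic loess, 0.15 with spike-in scaling and 0.82 with the percentile of unflagged spots. Its distance from the median of all genes, 0.44, was 0.22 with quantile normalization and moved by less than the spot SD of 0.15 otherwise, though a change of scale alone cannot move it. With spike-in scaling, Cps1 turned to -0.0086 and Nags to -0.11, and with the percentile of unflagged spots Slc25a15 turned to 0.15. Scaling to the percentile of unflagged spots made 74.2% of genes past 2-fold higher in TSG-6, and spike-in scaling 12.4%, against 42.1% as reported. It was 34.4% with quantile normalization, 30.4% with median centring and 29.7% with cyclic loess. Of the other nitrogen pathway genes, 11 were at least 1.5-fold higher. That count was 8 with normexp and with the percentile of detected spots, and 23 with the percentile of unflagged spots. It was 6 with median centring, 4 with quantile normalization, 3 with cyclic loess and 2 with spike-in scaling. The count of these pathway genes at least 2-fold apart, 4, was 2 with spike-in scaling. The periportal count, 1, was 0 with the percentile of unflagged spots and with flagged spots left out, where Cdh1 had no value. The pericentral count, 6, was 3 with quantile normalization and cyclic loess and 2 with spike-in scaling. The count over all genes, 1159, was 753 with normexp, 708 with probes at or above the median signal and 1924 when dim probes were kept. For these counts the cause was not tested. No paired analysis was possible because each group is 1 array. The number of arrays limits the precision of every value.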
